A study of Mus musculus with 6 samples.

Results

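The SLC25 genes encode the mitochondrial carriers, and their transcripts were followed here in activated mouse macrophage-like cells with and without a curcumin emulsion. Members were all rows of the deposited count table whose symbol was Slc25a followed by a number, and 45 of the 21604 symbols met that rule. The cells were RAW 264.7, an established macrophage-like mouse line grown as 1 line of wild type genotype, which the labels also call bone marrow macrophages. One group of 3 libraries came from cells given lipopolysaccharide (LPS, from the wall of Gram-negative bacteria, which activates macrophages) at 100 ng/mL over 24 h. A second group of 3 had PE-CUR at 2 mg/mL in addition to that LPS dose, also over 24 h. The series title speaks of curcumin-loaded Pickering emulsions, which are droplets held stable by solid particles. Untreated cells, empty emulsion and free curcumin were not analysed here, so each difference is that of PE-CUR in the presence of LPS, which both groups carry.

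Carriers of this family sit mostly in the inner mitochondrial membrane, which small charged molecules do not cross unaided. Each carrier exchanges or imports a narrow set of substrates, such as ADP for ATP, phosphate, citrate, glutamate, carnitine esters, iron or glutathione. In macrophages these routes link glycolysis, the citric acid cycle, fatty acid oxidation and haem synthesis on both sides of the membrane.

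Total counts per library were between 28530750 and 35276533. Genes with any count numbered 18210 to 18451 in the LPS libraries and 16701 to 17002 in those with PE-CUR. All 8 macrophage marker genes checked passed the filter on low counts, with a summed level of 10500 to 11100 CPM (counts scaled to library size) in LPS and 8630 to 9810 CPM in LPS plus PE-CUR. These markers did not move alike. By the test described below, Adgre1 fell 3.17-fold, Lyz2 and Itgam were also lower, and Csf1r and Cd14 were higher. Cd68, Spi1 and Fcer1g did not pass its threshold. Liver transcripts were also present. The summed level of 6 hepatocyte genes, Alb among them, was 43.6 to 60.5 CPM in the LPS libraries and 70.1 CPM in LPS plus PE-CUR replicate 3, but 0.155 and 0.0568 CPM in LPS plus PE-CUR replicates 1 and 2. The summed level of 5 fibroblast genes, Col1a1 among them, was 12.1 CPM in LPS plus PE-CUR replicate 2. It was 1.31 to 2.35 CPM in the LPS libraries and 0.310 and 0.280 CPM in LPS plus PE-CUR replicates 1 and 3. The labels do not say whether replicates are separate cultures, so p-values measure the spread between these libraries, which may be technical. In bulk RNA, fewer cells carrying a transcript and less transcript per cell cannot be told apart.

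The promoters of 4 carriers are shown because their genes hold the widest span of outcomes among abundant members. Slc25a5, Slc25a3 and Slc25a4 were the 3 most abundant, and Slc25a20 fell most among members above 1 FPKM. Each run is a RefSeq window (build GRCm38.p6), written 5′ to 3′ on the gene's strand. It holds the 250 bases before an annotated start and 50 bases from that start on. For Slc25a3 that start lies inside the gene, downstream of its outer end at 91124046, and for the other 3 it is the outer end itself. Capitals mark the letters TATAA in the Slc25a5 window (chrX:36795347-36795646, plus strand) and the Slc25a4 window (chr8:46211013-46211312, minus strand). They mark GCGC and TGCGC with 1 base between them, the site type of the respiratory gene factor NRF1, in the Slc25a3 window (chr10:91123918-91124217, minus strand). In the Slc25a20 window (chr9:108661886-108662185, plus strand) they mark CCGGAAG, a site type of ETS factors.
Slc25a5: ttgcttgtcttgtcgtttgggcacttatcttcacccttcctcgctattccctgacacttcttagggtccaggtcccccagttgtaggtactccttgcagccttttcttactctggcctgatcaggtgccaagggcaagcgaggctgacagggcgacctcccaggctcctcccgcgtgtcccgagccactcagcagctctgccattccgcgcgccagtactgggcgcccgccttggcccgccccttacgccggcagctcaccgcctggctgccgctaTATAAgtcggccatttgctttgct
Slc25a4: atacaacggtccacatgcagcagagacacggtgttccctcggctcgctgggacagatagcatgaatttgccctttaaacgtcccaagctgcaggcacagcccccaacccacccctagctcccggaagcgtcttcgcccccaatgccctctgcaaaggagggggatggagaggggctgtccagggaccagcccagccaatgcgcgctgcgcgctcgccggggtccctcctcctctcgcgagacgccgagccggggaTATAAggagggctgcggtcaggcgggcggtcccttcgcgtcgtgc
Slc25a3: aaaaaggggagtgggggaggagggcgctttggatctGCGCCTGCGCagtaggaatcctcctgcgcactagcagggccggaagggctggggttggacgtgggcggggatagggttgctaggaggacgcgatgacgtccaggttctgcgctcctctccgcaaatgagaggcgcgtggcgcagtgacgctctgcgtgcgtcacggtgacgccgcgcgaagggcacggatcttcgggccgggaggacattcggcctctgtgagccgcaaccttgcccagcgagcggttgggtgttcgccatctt
Slc25a20: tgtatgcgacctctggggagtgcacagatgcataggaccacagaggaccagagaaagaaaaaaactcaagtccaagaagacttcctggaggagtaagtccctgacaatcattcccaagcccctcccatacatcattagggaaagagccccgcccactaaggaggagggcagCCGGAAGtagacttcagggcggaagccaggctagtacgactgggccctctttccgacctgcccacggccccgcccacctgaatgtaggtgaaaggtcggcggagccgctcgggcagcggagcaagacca

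Carriers of phosphate, ADP/ATP, aspartate, glutamate, ornithine, glycine and folate had more transcript in LPS plus PE-CUR. The carnitine carrier, mitoferrin 1, the glutathione carrier paralog Slc25a40, the abundant ATP-Mg carrier Slc25a24 and the uncoupling protein-like carrier Slc25a14 had less. Of the 45 members, 38 passed the filter on low counts, and 18 of these were called higher and 13 lower. A call means a p below 0.05 in edgeR's quasi-likelihood test of 3 against 3 libraries after Benjamini-Hochberg adjustment. The background was high. Of all 13014 genes tested, 63.4% were called, 30.8% higher and 32.7% lower. At least 1.5-fold changes were called for 7 members higher and 9 lower, beside 15.2% and 19.1% of all tested genes. The median log2 fold change was 0.16 over the tested members and -0.03 over all tested genes. FPKM values of the groups did not overlap in 15 members that were higher and 15 that were lower, against 30.2% and 38.4% of all tested genes. LPS plus PE-CUR replicates 1 and 2, the libraries without liver transcripts, were also left out together. That fit holds 1 PE-CUR library, which is assumed to vary like the LPS libraries. Fewer members were then called in either direction, and fewer of all tested genes were called as well.

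**Figure D1:**
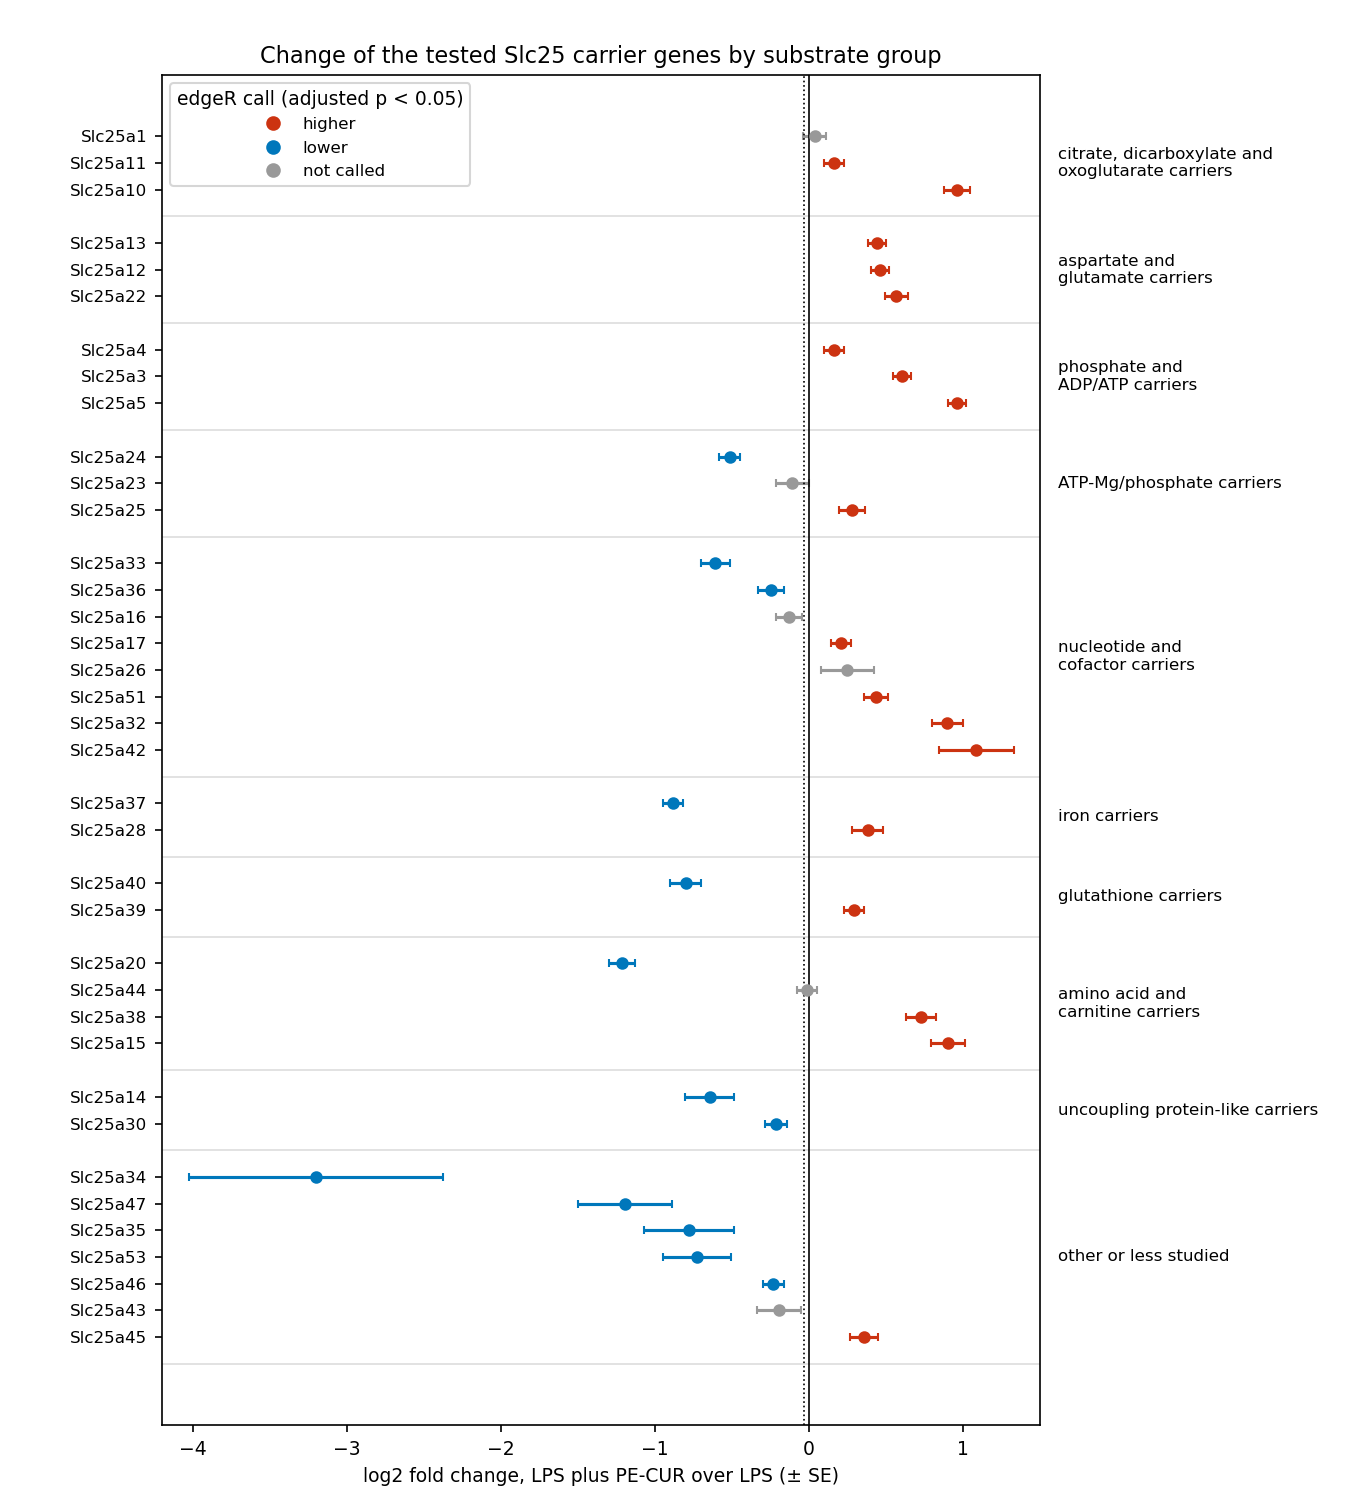
Log2 fold change of the tested carriers reported here, LPS plus PE-CUR over LPS, with the standard error as bars; rows are genes grouped by substrate, the solid line is 0 and the dotted line is the median of all tested genes (-0.03). Aspartate, glutamate, phosphate and ADP/ATP carriers lie right of 0, and the iron and glutathione groups each hold 1 gene on either side.

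The carriers that feed ATP synthesis were the most abundant members and all 3 tested ones were called higher. Slc25a5 (ADP/ATP translocase 2, the form of dividing cells; chromosome X, 36795597 to 36798808, build GRCm38.p6) had 252, 270.2 and 245 FPKM in the LPS libraries and 487, 467 and 488 FPKM in those with PE-CUR, in the order of the replicate numbers. The lowest PE-CUR library was well above the highest LPS library, and the gene rose 1.95-fold (log2 fold change 0.97, SE 0.06, edgeR adjusted p = 2.51e-07). Of its longest coding transcript, 27.9% of 75-base stretches also occur in other annotated transcripts, mostly of pseudogenes, so its reads could be split or shared with these copies. Slc25a3 (the phosphate carrier of ATP synthesis; chromosome 10, 91116574 to 91124046) had 177, 191 and 176 FPKM in LPS and 279, 249 and 269 FPKM in LPS plus PE-CUR. It rose 1.52-fold without overlap of the groups (log2 fold change 0.61, SE 0.06, edgeR adjusted p = 5.95e-06). Slc25a4 (ADP/ATP translocase 1, the form of heart and muscle; chromosome 8, 46207168 to 46211062) had 126, 138 and 125 FPKM in LPS and 135, 141 and 143 FPKM with PE-CUR, so the groups overlapped. Its call as higher was weak (log2 fold change 0.17, SE 0.07, edgeR adjusted p = 0.0424). That call ended without LPS replicate 1, LPS replicate 3 or LPS plus PE-CUR replicate 3 (edgeR adjusted p = 0.0678, 0.0904 and 0.0772), while the change was 0.26 without LPS replicate 2. It also ended with scaling by library size alone (0.11, edgeR adjusted p = 0.139). Slc25a31, the testis form, had 1 count in all 6 libraries.

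Summed over all 45 members, the family held 1014, 1077 and 1025 FPKM in LPS and 1353, 1274 and 1326 FPKM in LPS plus PE-CUR. The 3 PE-CUR libraries were all above the 3 LPS libraries, with means of 1039 ± 33.4 and 1318 ± 40.4 (SD, n = 3), a ratio of 1.27 (exact two-sided permutation p = 0.1, the smallest that 3 against 3 can give). Slc25a5 alone made up 24.8%, 25.1% and 23.9% of that sum in LPS and 36.0%, 36.7% and 36.8% in LPS plus PE-CUR. Slc25a3, Slc25a4 and Slc25a5 together made up 54.5 ± 1.25% and 67.3 ± 0.640% of it (exact permutation p = 0.1). Without Slc25a5 and Slc25a3, chosen after their values were seen, the remaining members summed to 602 ± 15.4 FPKM in LPS and 571 ± 14.9 FPKM in LPS plus PE-CUR. Of all counts, the family took 0.248 ± 0.00517% in LPS and 0.278 ± 0.00820% in LPS plus PE-CUR, a smaller ratio of 1.12 (exact permutation p = 0.1). The size of the family difference thus depends on the unit, since FPKM divides counts by gene length. Transcripts of the 13 genes encoded in mitochondrial DNA took 3.16 ± 0.231% of counts in LPS and 3.26 ± 0.207% in LPS plus PE-CUR (exact permutation p = 0.7).

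**Figure D2:**
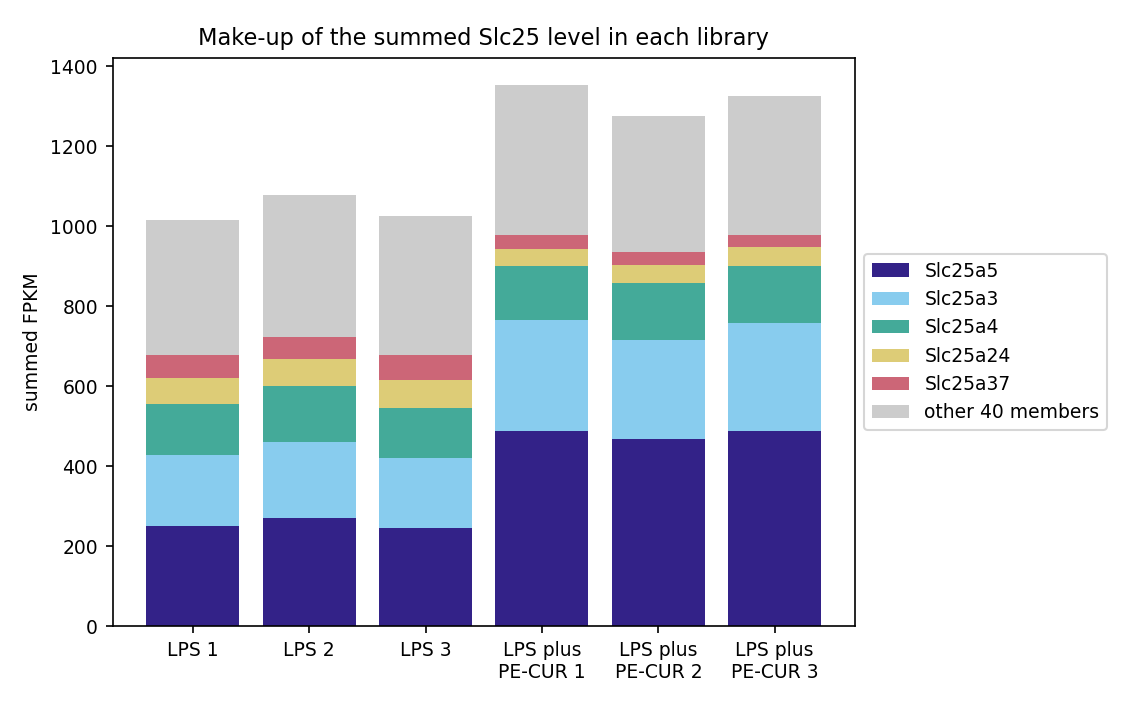
Stacked bars give the summed FPKM of all 45 members in each library, with 5 members drawn apart and the other 40 in grey. The bars reach 1014 to 1077 in LPS and 1274 to 1353 in LPS plus PE-CUR, and the Slc25a5 block grows from about 24.8% to about 36.0% of the bar.

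Carriers of dicarboxylates, aspartate and glutamate were called higher in 5 of 6 tested cases, and none was called lower, beside 30.8% and 32.7% of all tested genes. Slc25a10 (the dicarboxylate carrier, which exchanges malate and succinate for phosphate; chromosome 11, 120491837 to 120501161) had 4.44, 4.74 and 4.29 FPKM in LPS and 9.26, 7.75 and 8.31 FPKM in LPS plus PE-CUR. Every PE-CUR library was above every LPS library, and the gene rose 1.95-fold (log2 fold change 0.96, SE 0.08, edgeR adjusted p = 2.48e-06). Of its longest transcript, 7.90% of 75-base stretches overlap the antisense gene Gm11788. Slc25a22, a glutamate carrier, had 5.26, 5.33 and 5.37 FPKM in LPS and 7.77, 7.17 and 7.88 FPKM with PE-CUR, a 1.49-fold rise (edgeR adjusted p = 6.09e-05). The aspartate/glutamate carriers Slc25a12 (aralar) and Slc25a13 (citrin), which serve the malate-aspartate shuttle, moved alike. Slc25a12 stood at 9.62, 9.78 and 9.56 FPKM in LPS and 13.2, 11.9 and 13.3 FPKM with PE-CUR (log2 fold change 0.46, SE 0.06, edgeR adjusted p = 5.22e-05). Slc25a13 stood at 15.7, 16.5 and 15.6 FPKM in LPS and 20.9, 20.6 and 21.1 FPKM with PE-CUR (log2 fold change 0.44, SE 0.06, edgeR adjusted p = 6.04e-05). Neither gene had overlapping groups.

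The other carrier of that shuttle, Slc25a11, was only weakly called, and the carrier of citrate export, Slc25a1, was not called. Slc25a11, the oxoglutarate/malate carrier, had 37.7, 41.1 and 38.4 FPKM in LPS and 45.4, 38.8 and 42.5 FPKM with PE-CUR, with overlapping groups. Its weak call as higher (log2 fold change 0.17, edgeR adjusted p = 0.0469) ended without LPS replicate 1 or 3 and without LPS plus PE-CUR replicate 1 or 3 (edgeR adjusted p from 0.0688 to 0.0851), and the change was 0.26 without LPS plus PE-CUR replicate 2. It also ended with scaling by library size alone and on log2 FPKM (limma adjusted p = 0.193 and 0.196). Slc25a1, the citrate carrier that supplies lipid synthesis, had a mean of 31.3 ± 1.65 FPKM in LPS and 31.0 ± 3.05 FPKM with PE-CUR and was not called (edgeR adjusted p = 0.673). The sign of the Slc25a1 difference turned with the scaling. Slc25a18, the other glutamate carrier, had at most 2 counts in any library.

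The ornithine and glycine carriers rose, the carnitine carrier fell and the carrier of branched-chain amino acids was not called. Slc25a15 (the ornithine carrier of the urea cycle and polyamine routes; chromosome 8, 22375550 to 22398621) had 1.92, 1.86 and 2.00 FPKM in LPS and 3.49, 3.23 and 3.72 FPKM in LPS plus PE-CUR. This was a 1.88-fold rise with well separated groups (log2 fold change 0.91, SE 0.11, edgeR adjusted p = 3.11e-05). Slc25a38, the glycine carrier needed for haem synthesis, had 2.72, 2.90 and 2.43 FPKM in LPS and 4.62, 4.23 and 4.02 FPKM with PE-CUR, a 1.66-fold rise (edgeR adjusted p = 6.42e-05). Slc25a20 (the carnitine/acylcarnitine carrier, which admits fatty acids to oxidation; chromosome 9, 108662136 to 108684642) went the other way. It had 25.2, 26.0 and 25.5 FPKM in LPS and 11.4, 11.1 and 9.37 FPKM in LPS plus PE-CUR, with every PE-CUR library far below the LPS range. The fall was 2.32-fold (log2 fold change -1.21, SE 0.08, edgeR adjusted p = 5.31e-07). Slc25a44, a carrier of branched-chain amino acids, had means of 9.78 ± 0.401 and 9.34 ± 0.281 FPKM and was not called (edgeR adjusted p = 0.888), with a sign that turned with the scaling. Slc25a2 and Slc25a29, carriers of basic amino acids, had at most 3 counts in any library.

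Iron carriers split. Slc25a37 (mitoferrin 1, the main importer of iron in red cell precursors; chromosome 14, 69241848 to 69285544) had 58.4, 54.8 and 63.4 FPKM in LPS and 32.8, 30.7 and 28.8 FPKM in LPS plus PE-CUR. All PE-CUR libraries lay below all LPS libraries, and the gene fell 1.84-fold (log2 fold change -0.88, SE 0.07, edgeR adjusted p = 8.95e-07). Slc25a28 (mitoferrin 2, the widely expressed form) had 11.6, 11.8 and 13.7 FPKM in LPS and 17.4, 15.7 and 13.4 FPKM with PE-CUR, and LPS plus PE-CUR replicate 3 lay within the LPS range. It was called higher (log2 fold change 0.38, SE 0.10, edgeR adjusted p = 0.00622), but not without LPS plus PE-CUR replicates 1 and 2 together (0.24, edgeR adjusted p = 0.119). In LPS the level of Slc25a37 was 4.76 times that of Slc25a28, and in LPS plus PE-CUR it was 1.99 times. The log2 ratio of Slc25a28 to Slc25a37 lay at -2.33, -2.22 and -2.21 in LPS and at -0.91, -0.96 and -1.10 with PE-CUR, with no overlap (exact permutation p = 0.1).

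The glutathione carriers split as well. Slc25a39, which imports glutathione, had 42.8, 48.2 and 46.4 FPKM in LPS and 58.2, 50.8 and 53.5 FPKM in LPS plus PE-CUR and rose 1.23-fold (log2 fold change 0.30, SE 0.06, edgeR adjusted p = 0.00192). Its paralog Slc25a40 had 2.17, 2.13 and 2.56 FPKM in LPS and 1.14, 1.36 and 1.29 FPKM with PE-CUR and fell 1.74-fold (log2 fold change -0.80, SE 0.10, edgeR adjusted p = 3.81e-05). Neither gene had overlapping groups. The log2 ratio of Slc25a39 to Slc25a40 differed by 1.10 between the group means (exact permutation p = 0.1). The length behind the deposited FPKM was 26119 bases for Slc25a40, against 2784 bases for its longest coding transcript in GENCODE M21, so its level relative to Slc25a39 is uncertain, while the change between groups does not depend on length. Part of its transcript (8.38% of 75-base stretches) also occurs in Gm5066.

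Among the ATP-Mg/phosphate carriers, which set the adenine nucleotide content of mitochondria, the tested genes took 3 courses. Slc25a24 had 65.0, 69.6 and 69.5 FPKM in LPS and 42.5, 46.2 and 48.7 FPKM in LPS plus PE-CUR and fell 1.43-fold (log2 fold change -0.51, SE 0.07, edgeR adjusted p = 7.60e-05). Slc25a25 had 3.93, 4.40 and 3.63 FPKM in LPS and 4.51, 4.65 and 4.83 FPKM with PE-CUR and was called higher by 0.28 on the log2 scale (edgeR adjusted p = 0.0128), which was lost on log2 FPKM (limma adjusted p = 0.0770 and 0.0784). Slc25a23 had 10.4, 11.8 and 11.2 FPKM in LPS and 12.1, 8.69 and 9.15 FPKM with PE-CUR and was not called (edgeR adjusted p = 0.424). LPS plus PE-CUR replicate 1 was the highest of all 6 libraries for Slc25a23 and the other PE-CUR libraries were the lowest. Without that replicate the gene was called lower (log2 fold change -0.22, edgeR adjusted p = 0.0303), and without LPS plus PE-CUR replicate 2 the difference was 0.02. Slc25a41 had at most 2 counts.

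Carriers of nucleotides and cofactors were divided, with 4 higher, 2 lower and 3 not called of 9 tested, and the 66.7% called was near the 63.4% of all tested genes. Slc25a32, the folate carrier, had 3.39, 3.61 and 3.02 FPKM in LPS and 5.62, 6.64 and 5.72 FPKM in LPS plus PE-CUR and rose 1.87-fold (log2 fold change 0.90, SE 0.10, edgeR adjusted p = 1.76e-05). Slc25a42, the coenzyme A carrier, had 67, 61 and 66 counts in LPS and 181, 104 and 99 counts with PE-CUR. The groups were separate, but replicate 1 held far more than the other PE-CUR libraries (log2 fold change 1.09, SE 0.24, edgeR adjusted p = 0.00244). Slc25a16, also linked to coenzyme A, had 8.40, 7.84 and 9.03 FPKM in LPS and 7.73, 7.73 and 6.82 FPKM with PE-CUR and was not called (edgeR adjusted p = 0.215). Slc25a51, the NAD carrier, rose from 8.38 ± 0.336 to 10.9 ± 1.21 FPKM (edgeR adjusted p = 4.93e-04). Slc25a17, the peroxisomal member of the family, rose from 28.3 ± 0.621 to 31.5 ± 1.78 FPKM (edgeR adjusted p = 0.0142), a call that ended with scaling by library size alone (edgeR adjusted p = 0.0757).

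Pyrimidine nucleotide carriers were both called lower. Slc25a33 had 18.3, 19.5 and 20.3 FPKM in LPS and 12.3, 10.7 and 13.8 FPKM in LPS plus PE-CUR (log2 fold change -0.61, SE 0.09, edgeR adjusted p = 1.74e-04). Its change was -0.37 without LPS plus PE-CUR replicates 1 and 2, and 11.4% of its 75-base stretches overlap the antisense gene Gm13068. Slc25a36 had 8.81, 7.43 and 7.74 FPKM in LPS and 6.92, 6.71 and 5.88 FPKM with PE-CUR. That smaller fall (log2 fold change -0.24, edgeR adjusted p = 0.0252) was lost without LPS replicate 1 (-0.13, edgeR adjusted p = 0.212), LPS replicate 3 (-0.23, edgeR adjusted p = 0.0655) or LPS plus PE-CUR replicate 3 (-0.16, edgeR adjusted p = 0.152). The carrier of S-adenosylmethionine, Slc25a26, had 2.01 ± 0.283 and 2.30 ± 0.376 FPKM and was not called (edgeR adjusted p = 0.225).

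Both tested uncoupling protein-like carriers under Slc25a symbols were called lower, beside 32.7% of all tested genes. Slc25a14 had 3.11, 3.30 and 3.65 FPKM in LPS and 1.85, 2.41 and 1.92 FPKM in LPS plus PE-CUR and fell 1.56-fold (log2 fold change -0.64, SE 0.16, edgeR adjusted p = 0.00485). Slc25a30 had 8.03, 7.83 and 8.52 FPKM in LPS and 7.32, 6.45 and 6.55 FPKM with PE-CUR, a smaller difference without overlap (log2 fold change -0.21, edgeR adjusted p = 0.0251). The Slc25a30 call was lost on leaving out any 1 library other than LPS plus PE-CUR replicate 1, with an edgeR adjusted p of 0.0764 (without LPS replicate 2) to 0.188 (without LPS replicate 3). It was also lost with DESeq2 (adjusted p = 0.0660). Slc25a27 had at most 5 counts in any library.

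Of 7 tested carriers with less studied substrates, 5 were called lower and 1 higher, beside 32.7% and 30.8% of all tested genes, and 4 of the 5 had low counts. Slc25a47, known as a liver carrier, had 54, 40 and 74 counts in LPS and 22, 22 and 23 counts in LPS plus PE-CUR (log2 fold change -1.19, SE 0.30, edgeR adjusted p = 0.00531). For Alb, LPS libraries held 1600, 1081 and 1711 counts, and PE-CUR libraries 1, 0 and 1648. LPS plus PE-CUR replicate 3 was thus at the LPS level for Alb and at the level of the other PE-CUR libraries for Slc25a47. Without replicates 1 and 2 of LPS plus PE-CUR, the Slc25a47 difference was -0.93 (edgeR adjusted p = 0.0970, with the lone PE-CUR library assumed to vary like the LPS libraries). Slc25a34 had 10, 13 and 20 counts in LPS and 4, 0 and 0 with PE-CUR (log2 fold change -3.20, SE 0.82, edgeR adjusted p = 0.00559), and the fitted value was -6.78 on leaving out LPS plus PE-CUR replicate 1, which held all of the PE-CUR counts.

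Slc25a35 had 63, 106 and 63 counts in LPS and 51, 45 and 31 with PE-CUR (log2 fold change -0.77, edgeR adjusted p = 0.0380), with LPS replicate 2 well above the rest. Its call ended without LPS replicate 2 (-0.41, edgeR adjusted p = 0.262), LPS replicate 1 (edgeR adjusted p = 0.0548), LPS plus PE-CUR replicate 2 (edgeR adjusted p = 0.0886) or LPS plus PE-CUR replicate 3 (edgeR adjusted p = 0.106), and 23.1% of its 75-base stretches occur in other genes, Rangrf on the opposite strand among them. Slc25a53 had 84, 104 and 109 counts in LPS and 47, 67 and 52 with PE-CUR (a log2 difference of -0.73 with an edgeR adjusted p = 0.0134), which was not called without LPS replicate 2 or 3 (edgeR adjusted p = 0.0650 and 0.0590). Slc25a46, an outer membrane protein tied to mitochondrial fission and fusion, went from 17.2 ± 0.642 to 14.1 ± 0.761 FPKM (log2 fold change -0.23, edgeR adjusted p = 0.0149). On leaving out 1 library, its call held for LPS plus PE-CUR replicate 2 and was lost for each of the other 5 (edgeR adjusted p from 0.0516 to 0.114), and the change was -0.15 without LPS plus PE-CUR replicate 1. Slc25a45 rose from 7.97 ± 0.200 to 9.84 ± 1.27 FPKM (edgeR adjusted p = 0.00503), and Slc25a43 had 2.72 ± 0.0113 and 2.28 ± 0.321 FPKM and was not called. Slc25a48 had at most 1 count in any library.

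**Figure D3:**
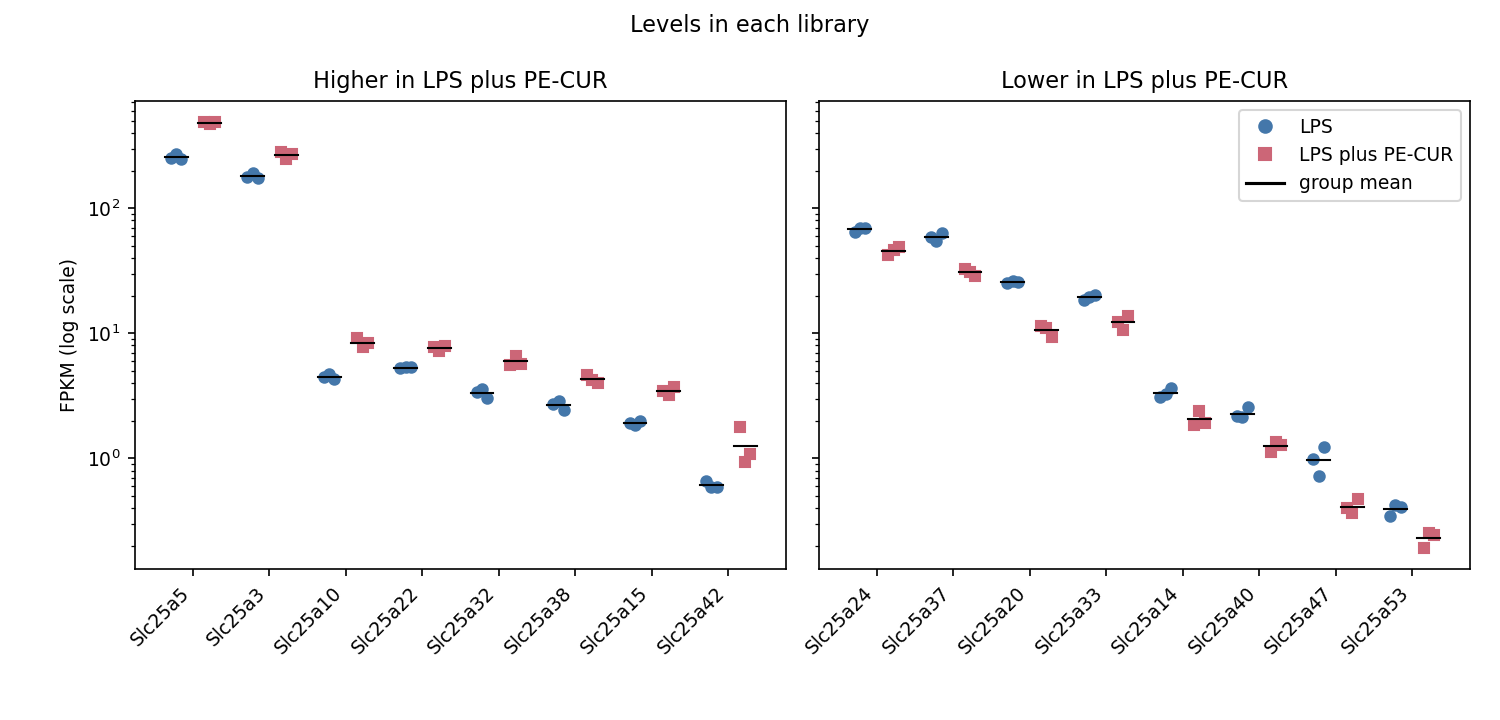
FPKM on a log axis in each library for 8 members called higher (left) and 8 called lower (right), with circles for LPS, squares for LPS plus PE-CUR and bars for the mean of 3 libraries. In each of these 16 genes the symbols of the groups do not overlap; Slc25a5 moves from a mean of 256 to 481 FPKM and Slc25a20 from 25.6 to 10.6 FPKM.

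Ratios between related carriers within a library do not depend on library scaling, and 11 pairs with both genes tested were compared. In 8 of the 11 pairs the ratios of the groups did not overlap, where 68.6% of single tested genes had no overlap. None could fall below an exact permutation p = 0.1, and those 8 had p = 0.1375 after adjustment over the 11 pairs. The widest shifts were those of Slc25a28 to Slc25a37 (2.40-fold), Slc25a16 to Slc25a42 (2.25-fold) and Slc25a39 to Slc25a40 (2.14-fold). The ratio of Slc25a5 to Slc25a4 went from 1.97 in LPS to 3.44 in LPS plus PE-CUR. For Slc25a12 and Slc25a13 the log2 ratio was -0.71, -0.76 and -0.70 in LPS and -0.66, -0.79 and -0.66 in LPS plus PE-CUR, a difference of 0.02 whose sign turned in 3 of the 6 sets that left out a library.

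**Figure D4:**
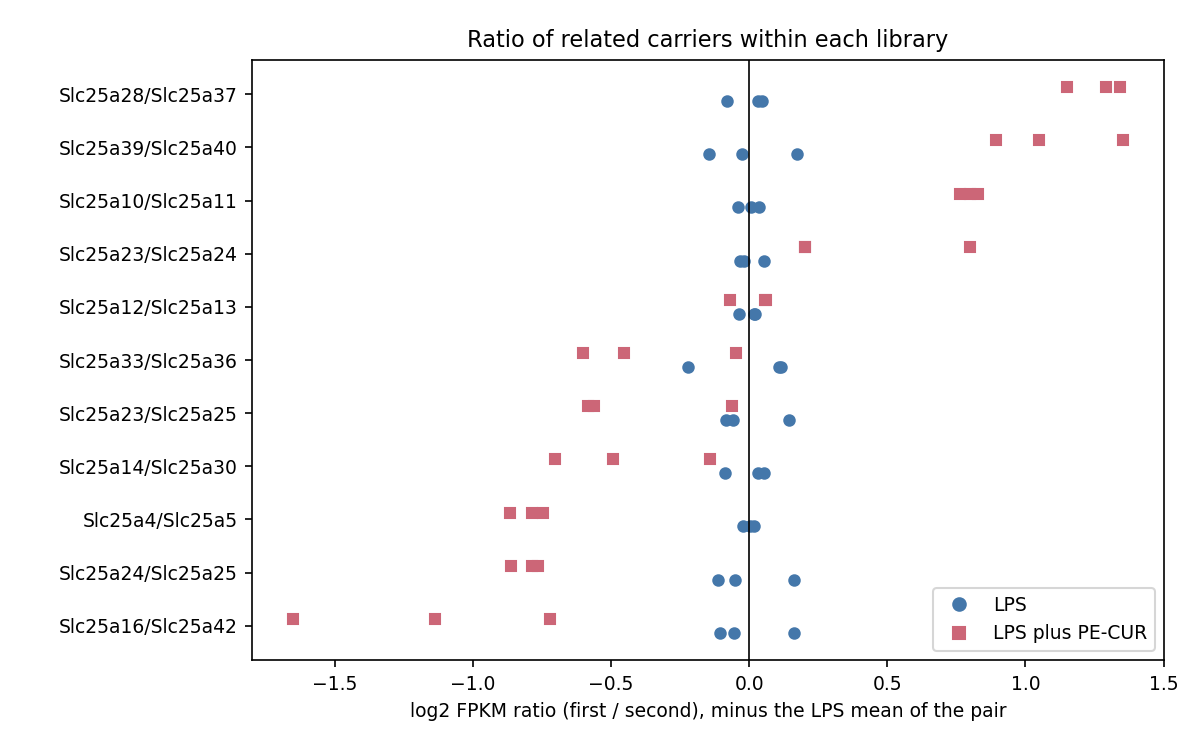
Each row is a pair of carriers with related substrates, and each symbol is the log2 FPKM ratio of the first to the second gene in 1 library, minus the LPS mean of that pair; circles are LPS and squares LPS plus PE-CUR. Squares lie apart from circles in 8 of the 11 pairs, with the mean farthest right for Slc25a28/Slc25a37, and on top of them for Slc25a12/Slc25a13.

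Genes that work on the same substrates were taken from a list of 42, which was chosen with earlier results of these data known. Of these, 40 were tested, with 25 higher and 4 lower, beside 30.8% and 32.7% of all tested genes. Because of that choice, the counts are not those of an independent sample. The folate enzymes were all called higher, beside their carrier Slc25a32. Shmt1 and Shmt2, which pass a carbon unit from serine to folate, rose 3.14-fold and 2.37-fold (edgeR adjusted p = 1.42e-07 and 1.31e-07), and Mthfd1l, which releases formate from mitochondria, rose 2.12-fold. All 4 enzymes of the malate-aspartate shuttle were called higher, with Mdh2 at 1.57-fold, Got2 at 1.51-fold, Got1 at 1.26-fold and Mdh1 at 1.13-fold. Oat, ornithine aminotransferase, rose 2.02-fold beside Slc25a15, and Gcsh of the glycine cleavage system rose 1.65-fold beside Slc25a38. Glud1, glutamate dehydrogenase, rose 1.54-fold beside Slc25a22.

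Among the carnitine and glutathione partners 1 gene each was called, both lower, and the iron partners held calls in both directions. Cpt1a, which makes the acylcarnitine that Slc25a20 carries, fell from 33.0 ± 1.41 to 8.69 ± 0.684 FPKM (log2 fold change -1.87, edgeR adjusted p = 2.01e-08). Cpt2, on the matrix side, had 8.31 ± 0.955 and 6.85 ± 0.421 FPKM and was not called (edgeR adjusted p = 0.0800), nor was Crat. For iron, Nfs1 of iron-sulfur assembly rose 1.13-fold, Fech, which inserts iron into haem, fell (log2 fold change -0.23, edgeR adjusted p = 0.0177), and Alas1 and Iscu were not called. Gclm, the modifier subunit of glutathione synthesis, fell (log2 fold change -1.33, edgeR adjusted p = 1.62e-07), while Gclc and Gss were not called.

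**Figure D5:**
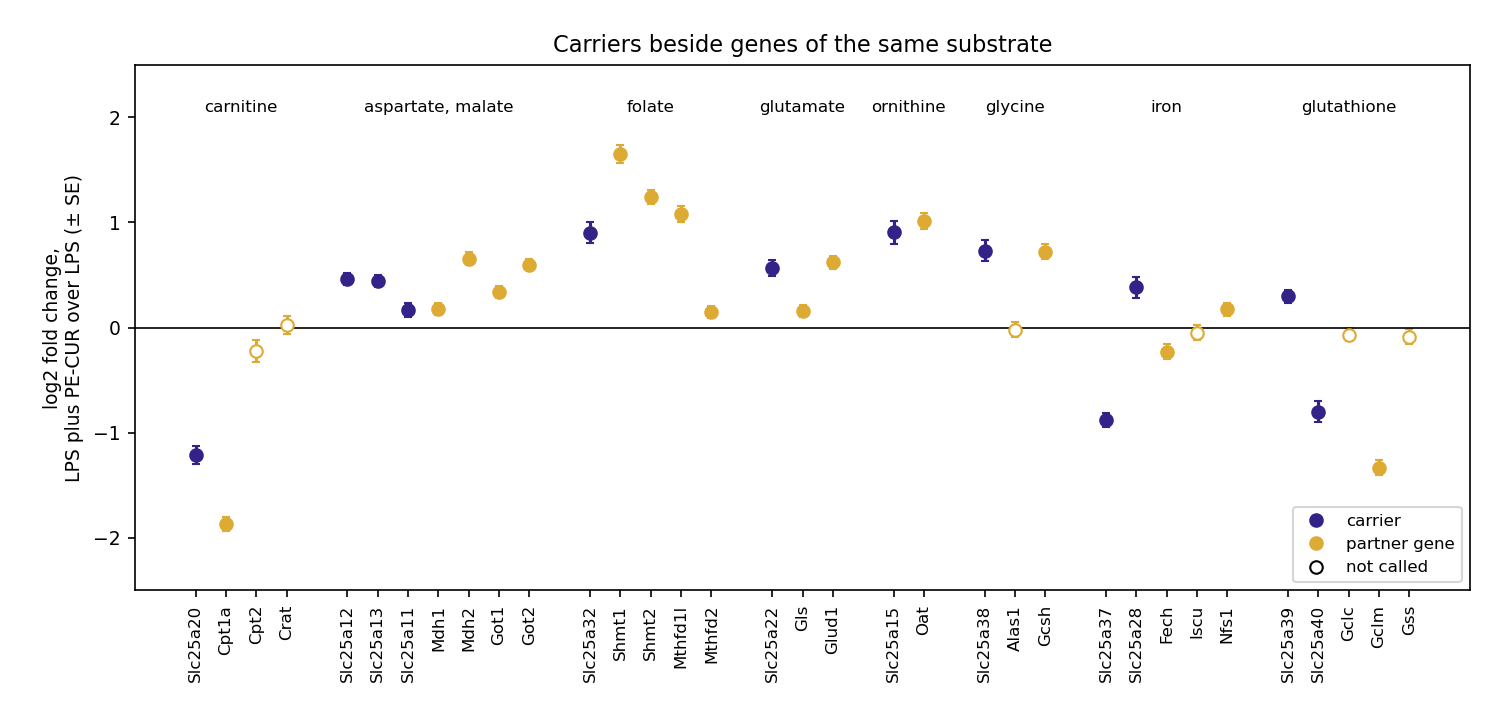
Log2 fold change with its standard error for carriers (dark) and for genes of the same substrate (yellow), LPS plus PE-CUR over LPS; open symbols were not called. Folate, shuttle, glutamate and ornithine genes lie above 0 with their carriers, and Slc25a20 and Cpt1a lie below it. Iron genes and iron carriers lie on both sides. The glutathione genes and the carrier Slc25a40 lie below 0, and the carrier Slc25a39 lies above it.

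Of 26 tested genes of other mitochondrial transport routes 13 were higher and 4 lower, beside 30.8% and 32.7% of all tested genes. In either direction 65.4% were called, beside 63.4% of all tested genes. Vdac1 and Vdac2, the channels of the outer membrane, rose 1.57-fold and 1.30-fold, and Mpc1 and Mpc2, which form the pyruvate carrier, both rose 1.25-fold. The serine carrier gene Sfxn1 rose from 21.7 ± 0.538 to 35.8 ± 0.875 FPKM (edgeR adjusted p = 7.18e-07), whereas its relative Sfxn3 fell from 10.2 ± 0.786 to 5.78 ± 0.410 FPKM. In the calcium uniporter complex Mcub fell (log2 fold change -0.52), Smdt1 rose (0.48), and the pore gene Mcu was not called (edgeR adjusted p = 0.193). Ucp2, a family member under another symbol, had 268 ± 12.6 FPKM in LPS, near the level of Slc25a5, and stood at 312 ± 40.7 FPKM with PE-CUR (log2 fold change 0.27, edgeR adjusted p = 0.00991), with overlapping groups.

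The 45 members lie on 19 chromosomes. The closest neighbours were Slc25a41 and Slc25a23 on chromosome 17 (2056 bases apart), Slc25a29 and Slc25a47 on chromosome 12 (13956 bases) and Slc25a43 and Slc25a5 on chromosome X (18289 bases). In the last pair Slc25a5 rose 1.95-fold and Slc25a43 was not called. RefSeq promoter windows were at hand for 30 tested members, and both strands were searched. A member with several windows (up to 3) was counted if any of them held the site. The share of all tested genes is instead per promoter, so the units differ, which favours the members. The GC box GGGCGG was in windows of 14 of 16 genes called higher and 9 of 10 called lower, against 59.4% of the promoters of all tested genes. It was also in windows of 4 of 4 members not called. CCGGAAG was in 5 of 16 and 1 of 10 (17.2% of all). TATAA was in 3 of 16 and 0 of 10 (14.4%). Counting the annotated start as base 1, TATAA begins at base 27 in Slc25a5 and at base 6 in Slc25a4. The NRF1-type site was in that of Slc25a3 alone among tested members (9.65%). CACGTG, the E-box, was in 2 of 16 and 3 of 10 (9.92%), and TGACNNNGC, the core of the antioxidant response element, in 4 of 16 and 4 of 10 (14.3%). The PPAR-type direct repeat, AGGTCA given again after 1 spacer base, was in none of the 30, and in 0.0303% of the promoters of tested genes. TGACGTCA, the cAMP response element, was in 1 of 16 and 1 of 10 (3.06%). These are matches of letters in the window and no measure of binding.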

How the data were processed

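RNA of 6 libraries was measured. TRIzol extraction and a VAHTS Universal V6 library kit were used, per the labels' protocols. The submitters' processing notes name fastp, HTSeq, SAMtools, DESeq2 and the build mm10, with no versions. For the aligner, annotation and strand setting, each is not given in the sources used here. The authors deposited raw counts per gene symbol and FPKM values for the same genes. Each FPKM value above 0 equals the count divided by a fixed gene length and the library total (relative tolerance 0.0001), so it is no second measurement.

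Counts were tested with edgeR 4.0.16 in R 4.3.3 (filterByExpr, TMM factors, robust quasi-likelihood fit, group as the only term, two-sided), with Benjamini-Hochberg adjustment over 13014 genes and a threshold of 0.05. Each SE was taken from the fold change and the square root of F. Levels are the deposited FPKM, without TMM factors, so their ratios differ slightly from the fitted folds. Counting error limits members near the floor. The fit was also run on simulated data in which few genes changed. Most tested genes were called here, so that run does not show how the fit behaves on these data. Sums and ratios were tested by exact two-sided permutation.

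Alternatives were other scaling factors and filters, DESeq2 1.42.0, limma 3.58.1 on log2(FPKM + 1) and log2(FPKM + 0.1), the replicate number as a block, and each library left out. A fit of only the libraries with liver transcripts was added after seeing the data. Members and lists were chosen with earlier results of these data known. Values per library are given for the 8 largest called changes without overlap in each direction, the 5 most abundant members and all pairs. Positions and promoters come from RefSeq GRCm38.p6 and overlaps from GENCODE M21. A few genes are counted in the totals but not reported here by name. Deviations of same-numbered libraries from their group means did not correlate (-0.10, -0.18 and -0.05).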

Additional observations from a re-analysis of the deposited data

How the results depend on the processing

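Of 38 tested members, 22 kept their direction and their side of the threshold under each of the 16 alternative fits across genes that gave them a value (Slc25a34 had none with the filter at 1 CPM), among them Slc25a3, Slc25a5, Slc25a10, Slc25a15, Slc25a20, Slc25a32, Slc25a37, Slc25a38, Slc25a39 and Slc25a40. Leaving out 1 library gave 16 to 18 members higher and 9 to 13 lower, and 7193 to 8315 genes called. Partner genes called lower numbered 4, and 2 to 4 with a library left out. With the libraries that hold liver transcripts alone, 8 members and 2 partner genes were lower, and calls of Slc25a28, Slc25a30, Slc25a35, Slc25a45, Slc25a46, Slc25a47 and Slc25a53 ended with their directions kept, while Slc25a26 became called (0.56, from 0.25). Without the replicate block the counts were 18 and 13, and with the replicate block 16 and 11, the numbers sharing no visible pairing. With the block, calls of Slc25a4, Slc25a11, Slc25a30 and Slc25a35 ended. Signs turned for members not called. Slc25a1 was 0.04, and -0.0158 with library size alone, -0.0179 on log2(FPKM + 1) and -0.0185 on log2(FPKM + 0.1). Slc25a23 was -0.10, and -0.216 to 0.0181 with a library left out. Slc25a44 was -0.01, and 0.00691 with median-ratio factors, 0.00696 with DESeq2, 0.0435 without a filter, 0.0233 without mitochondrial and the 10 most abundant genes, 0.0231 in the libraries with liver transcripts, and -0.000982 to 0.0649 with a library left out. The Slc25a12/Slc25a13 difference was 0.02, and -0.00587 to 0.0600 with a library left out. The log2 difference of the summed level was 0.34, and 0.32 to 0.37 with a library left out. The cause of these moves was not tested. Depth limits the 7 untested members and those under 100 counts.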
